A study of Mus musculus with 2 samples.

Results

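The CCN genes encode a small family of secreted proteins that sit in the extracellular matrix, and all 5 genes examined here, Ccn1, Ccn2, Ccn3, Ccn4 and Ccn5, were found by symbol among the 19674 rows of the count table. The samples were 2 cultures of wild-type mouse skin fibroblasts of a line labelled MDFB, 1 given IL-17A, an inflammatory cytokine, and 1 given vehicle. Both libraries carried the same batch label, and neither a dose nor a treatment time was given. The genes once had other names, namely Cyr61 for Ccn1, Ctgf for Ccn2, Nov for Ccn3, Wisp1 for Ccn4 and Wisp2 for Ccn5. The sixth family gene, Ccn6, was not analysed here. With 1 library per group there was no replicate check and no p-value. For the same reason the intervals reflect counting error alone, with no spread over cultures in them. Reads amplified by PCR without molecular tags do not each stand for a separate molecule, so these intervals may be too narrow. Each difference describes these 2 libraries.

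CCN proteins are called matricellular because they signal from the matrix rather than build it. They are assembled from cysteine-rich modules, beginning with one that resembles the insulin-like growth factor binding proteins, and they act through integrins, heparan sulfate proteoglycans and other surface receptors. In fibroblasts, CCN1 and CCN2 are known as fast-responding products of mechanical, YAP/TAZ and TGF-beta signalling, with roles in wound repair and fibrosis. CCN3 has been described as opposing CCN2 in fibrosis models, CCN4 was found as a Wnt-induced protein, and CCN5 is known for restraining proliferation of smooth muscle cells.

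The family signature is shown by the coding sequence of a motif in the first module, which was located in all 5 members by translating transcripts of GENCODE M21, an annotation of GRCm38, the assembly also called mm10. The capitals mark the 4 codons for cysteine in each stretch of 24 bases, which codes for 8 residues.
Ccn1: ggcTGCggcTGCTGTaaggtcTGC
Ccn2: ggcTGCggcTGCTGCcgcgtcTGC
Ccn3: ggcTGCtccTGCTGTccggtgTGC
Ccn4: ggcTGTgaaTGCTGTaagataTGT
Ccn5: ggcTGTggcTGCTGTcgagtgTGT
The cysteine codons stood at the same places in every member, while the codons between them differed. The stretch began at residue 49 in Ccn1, 52 in Ccn2, 54 in Ccn3, 72 in Ccn4 and 49 in Ccn5. The encoded proteins had 379, 348, 354 and 367 residues for Ccn1, Ccn2, Ccn3 and Ccn4. Ccn5 had 251 residues and 29 cysteines against 38 to 40 in the others, and it is the member that lacks the C-terminal cystine-knot module. Between members, 39.5% (Ccn4 and Ccn5) to 52.0% (Ccn1 and Ccn2) of the aligned residues were identical, so no pair was near enough in sequence to be a copy of the other.

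The genes lie apart in the genome. In GENCODE M21, Ccn1 is on chromosome 3 at 145646976 to 145649981, Ccn2 on chromosome 10 at 24595442 to 24598683, and Ccn5 on chromosome 2 at 163820861 to 163833146. Ccn3 at 54745702 to 54754039 and Ccn4 at 66891320 to 66923201 share chromosome 15, with 12.1 Mb between them. No other annotated gene overlapped Ccn1, Ccn3, Ccn4 or Ccn5. The noncoding gene Gm15270 overlaps 1667 bases of the span of Ccn2 on the opposite strand, and no strand setting for the counting is given in the sources used here. Gm15270 held 60 counts with IL-17A and 30 with vehicle, against 22245 and 15263 for Ccn2.

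The IL-17A library held 23559416 counts and the vehicle library 24427027. A gene is called measured if its counts in the 2 libraries add up to 50 or more, which held for 13534 rows, all 5 CCN genes among them. Levels are given as CPM, counts scaled to TMM-adjusted library size, and as CPM per kilobase of summed exon, which allows different genes to be compared. The fibroblast label held in both libraries, where all 8 fibroblast markers were measured and summed to 40721 CPM with IL-17A and 54939 CPM with vehicle. The markers did not move together, as their log2 ratios of IL-17A over vehicle ran from -0.82 to 2.62. Of the 8, 5 lay below 0 and 3 above. Markers of keratinocytes summed to 2.65 and 2.08 CPM in the IL-17A and vehicle libraries, those of endothelial cells to 5.08 and 4.16 CPM, those of immune cells to 18.5 and 22.0 CPM, and those of Schwann cells and melanocytes to 12.2 and 10.6 CPM. Markers of mural and smooth muscle cells, taken up below, had the largest sum outside fibroblasts, 52.9 CPM with IL-17A and 165 CPM with vehicle. The keratin Krt1 and the T cell gene Cd3e were at 0 in both libraries.

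The family divided into members that were higher with IL-17A, a member that differed little, and members that were much lower. Ccn1 and Ccn2 were each moderately higher in the IL-17A library, Ccn4 was slightly lower, and Ccn3 and Ccn5 were 11.2-fold and 5.39-fold lower. The limit for calling a gene higher or lower was 2-fold, which is a size and not a test. By it, 2 of the 5 members were lower and 0 were higher, where 3.69% of all measured genes were lower and 5.19% were higher.

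Ccn3, the member described as a counterweight to CCN2, had 1096 counts with IL-17A and 13343 with vehicle. This was 47.6 CPM with IL-17A and 534 CPM with vehicle, or 11.2-fold lower (95% counting interval 10.5 to 11.9). Of the measured genes, 27 (0.199%) had a lower ratio than Ccn3. Per kilobase its level was 16.6 CPM with IL-17A (interval 15.6 to 17.6) and 186 CPM with vehicle (interval 183 to 189). Of the 13366 measured genes with a known length, 24.6% stood above it with IL-17A and 1.51% with vehicle, so that it was among the most abundant transcripts of the vehicle culture. Since these are bulk cultures, fewer cells that express a gene and less RNA per cell cannot be told apart.

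Ccn5, the short member, had 642 counts with IL-17A and 3758 with vehicle, which is 27.9 CPM with IL-17A and 150 CPM with vehicle. It was 5.39-fold lower (95% counting interval 4.95 to 5.87), and 0.562% of the measured genes had a lower ratio. Its per-kilobase level was 14.5 CPM with IL-17A and 78.1 CPM with vehicle, the lowest of the 5 genes in both libraries. Ccn3 and Ccn5 were thus the pair below the 2-fold limit, and the difference was larger for Ccn3, since the Ccn5 to Ccn3 ratio was 2.08-fold higher with IL-17A (interval 1.87 to 2.31).

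Some transcripts that mark mural and smooth muscle cells, of which smooth muscle is a known source of Ccn5, were lower along with this pair. All 3 measured genes of a list of 4 such markers were lower, where 3.69% of all measured genes were lower. The summed level of the list was 52.9 CPM with IL-17A and 165 CPM with vehicle. The smooth muscle myosin Myh11 had 135 counts with IL-17A and 1101 with vehicle, and the proteoglycan Cspg4 had 1070 with IL-17A and 2908 with vehicle. The channel subunit Kcnj8 had 6 counts with IL-17A and 100 with vehicle, and Rgs5, which was not measured, had 6 with IL-17A and 21 with vehicle. Other smooth muscle genes, chosen for mention once the values were known, were less uniform. Actg2 and Cnn1 stood at log2 ratios of -1.10 and -1.05, Acta2 and Myl9 at -0.31 and -0.29, and Tagln at 0.26. The part of such cells in the lower Ccn3 and Ccn5 was not tested.

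Ccn1, an adhesive protein known to bring on senescence of fibroblasts in healing wounds, had 16224 counts with IL-17A and 9790 with vehicle. It stood at 705 CPM with IL-17A and 391 CPM with vehicle, 1.80-fold higher (95% counting interval 1.76 to 1.85). That is inside the 2-fold limit, and 6.44% of measured genes had a higher ratio. Ccn2, the connective tissue growth factor and a standard marker of fibrotic fibroblasts, had 22245 counts with IL-17A and 15263 with vehicle. It stood at 967 CPM with IL-17A and 610 CPM with vehicle, 1.58-fold higher (95% counting interval 1.55 to 1.62), with 8.72% of measured genes above its ratio. These ratios were close to each other but not equal within counting error, as the Ccn1 to Ccn2 ratio was 1.14-fold higher with IL-17A (interval 1.10 to 1.17).

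Ccn4, the Wnt-induced member, had the most counts of the family, with 23726 in the IL-17A library and 30636 in the vehicle library. Its level was 1031 CPM with IL-17A and 1225 CPM with vehicle, 1.19-fold lower (95% counting interval 1.17 to 1.21). With 21.6% of measured genes at a lower ratio and 78.4% at a higher one, it lay well inside the bulk of the transcriptome.

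**Figure D1:**
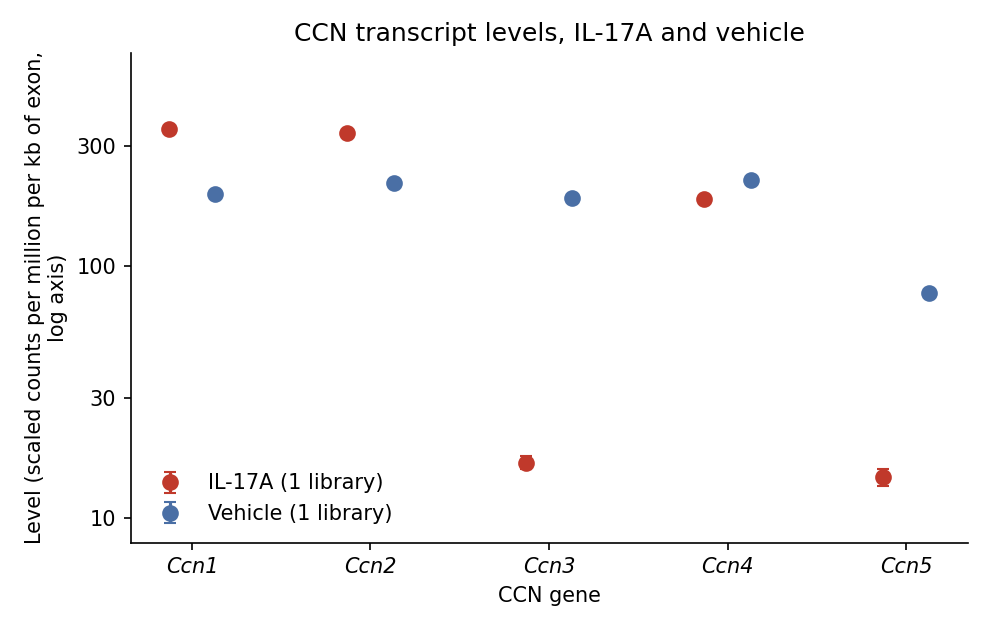
Level of each CCN gene in CPM per kilobase of summed exon, on a log axis, with IL-17A in red left of vehicle in blue (1 library each). Bars are exact Poisson 95% intervals, mostly smaller than the points. Ccn3 and Ccn5 sit at 16.6 and 14.5 with IL-17A, below their vehicle points at 186 and 78.1, while the IL-17A points of Ccn1 and Ccn2 lie above the vehicle points.

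**Figure D2:**
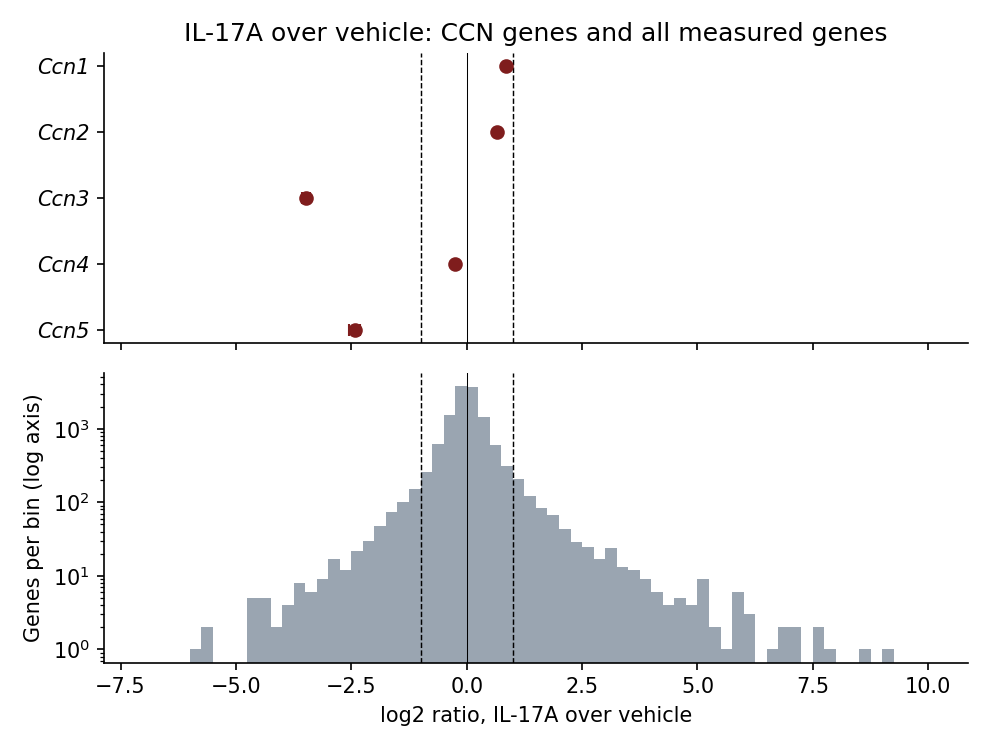
The upper panel gives the log2 ratio of IL-17A over vehicle for the 5 genes, with 95% counting intervals, and the lower panel counts all 13534 measured genes by the same ratio in bins of 0.25, on a log axis. Dashed lines mark 2-fold. Ccn3 at -3.49 and Ccn5 at -2.43 fall in the thin lower tail, and the other 3 genes lie between the lines.

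The summed level of the family was nearly the same in both libraries, although its make-up was not. Together the 5 genes held 63933 counts with IL-17A, 0.271% of the library, and 72790 with vehicle, 0.298%. In CPM this was 2778 with IL-17A and 2911 with vehicle, a log2 ratio of -0.07 (interval -0.08 to -0.05). Summed per kilobase, the family stood at 903 CPM with IL-17A and 891 CPM with vehicle, a log2 ratio of 0.02. The sign of this small difference depended on whether levels were taken per length. It also hangs on the scaling, since total counts in place of TMM shift the log2 ratios by -0.07, more than the 0.02.

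Within the per-kilobase sum, Ccn1 and Ccn2 together made up 76.1% with IL-17A and 45.7% with vehicle. Ccn3 and Ccn5 together made up 3.44% with IL-17A and 29.6% with vehicle. Ccn4 made up 20.5% with IL-17A and 24.7% with vehicle. Per kilobase of summed exon, the IL-17A culture had Ccn1 and Ccn2 on top, Ccn4 below them, and Ccn3 and Ccn5 far down, whereas the vehicle culture had 4 genes at similar levels and Ccn5 below them.

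**Figure D3:**
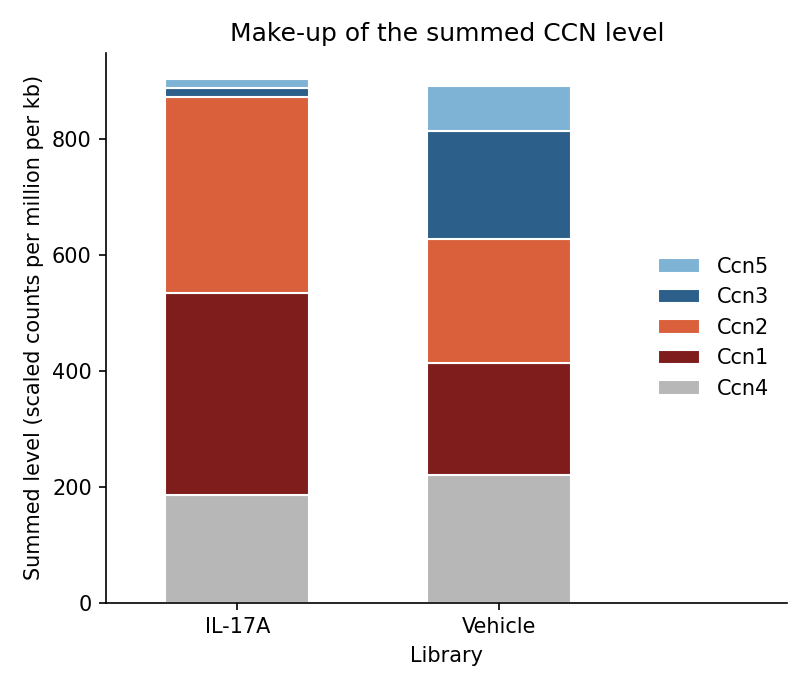
Stacked bars of the 5 per-kilobase levels, in CPM per kilobase, for the IL-17A library on the left and the vehicle library on the right. The bars reach 903 and 891, but the blue Ccn3 and Ccn5 parts are thin with IL-17A, and the red and orange Ccn1 and Ccn2 parts take up 76.1% of that bar and 45.7% of the vehicle bar.

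The order of the levels with IL-17A was Ccn1 at 349 CPM per kilobase (interval 344 to 355), Ccn2 at 338 (333 to 342), Ccn4 at 185 (183 to 188), Ccn3 at 16.6 and Ccn5 at 14.5. With vehicle it was Ccn4 at 220 (218 to 223), Ccn2 at 213 (210 to 217), Ccn1 at 194 (190 to 198), Ccn3 at 186 (183 to 189) and Ccn5 at 78.1. The counting intervals of neighbours in these orders did not overlap, except for Ccn3 (15.6 to 17.6) and Ccn5 (13.4 to 15.7) with IL-17A, and there was no spread over cultures to set them against. The order among the leading members also changed with the length used, as with transcript length in place of summed exon Ccn2 ranked 1 in both libraries. With coding length, or with no length, Ccn4 ranked 1 and Ccn1 ranked 3 with IL-17A. Under each length tried, and without any, Ccn5 was the lowest in both libraries and Ccn3 the next lowest with IL-17A.

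Ratios between members are free of the scaling between libraries, and all 10 pairs differed between the cultures beyond counting error. Per kilobase, Ccn2 over Ccn3 was 20.4 with IL-17A and 1.15 with vehicle, a difference of 17.7-fold (95% counting interval 16.6 to 19.0). Ccn1 over Ccn3 was 21.0 with IL-17A and 1.04 with vehicle, 20.2-fold apart (interval 18.9 to 21.6), the widest of the pairs. Ccn2 over Ccn5 was 23.3 with IL-17A and 2.73 with vehicle, and Ccn4 over Ccn5 was 12.8 with IL-17A and 2.82 with vehicle. Ccn1 and Ccn2 each gained on Ccn4 as well, by 2.14-fold (interval 2.08 to 2.21) and 1.88-fold (interval 1.83 to 1.93).

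The promoter of Ccn1 is printed since TEAD factors, the DNA-binding partners of YAP and TAZ, and CREB are known to act on it. RefSeq promoters on GRCm38.p6 were given for 1 of the 5 members. The 250 bases before its start lie at chr3:145649986-145650235 on the minus strand. Capitals mark, in order, a TEAD motif CATTCC, a core of the cyclic AMP response element, TGACG, read on the other strand, and a TATA box TATAAA.
Ccn1 promoter: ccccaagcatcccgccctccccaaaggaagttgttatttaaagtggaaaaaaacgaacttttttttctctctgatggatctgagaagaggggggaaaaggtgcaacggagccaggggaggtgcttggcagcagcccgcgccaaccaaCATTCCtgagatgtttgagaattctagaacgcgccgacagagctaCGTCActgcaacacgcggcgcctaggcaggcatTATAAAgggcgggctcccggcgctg
Their first bases lie at -103, -58 and -25 from the start. On either strand, 12.6% of 27025 such windows held CATTCC, 17.9% held TGACG and 13.0% held TATAAA, so each is common, and the 3 sites did not overlap. Searched the same way, this window held no match for AP-1 (TGANTCA, in 6.87% of windows), TCF/LEF (CTTTGAT, 3.23%), SMAD (GTCTG, 42.1%), the SRF CArG box (1.40%) or NF-kB (7.01%). The matches describe the sequence and do not show that a factor was bound.

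The 3′ untranslated regions differed in their content of ATTTA, the core of AU-rich elements that shorten the life of many cytokine and immediate early transcripts. Counting overlapping matches in the transcript with the longest coding sequence, Ccn1 had 5 in 690 bases, or 7.25 per kilobase, and 97.6% of 11316 measured coding genes had fewer per kilobase. Ccn3 had 6 in 1534 bases, 3.91 per kilobase. Ccn2 had 2 in 1067 bases, Ccn4 had 4 in 3747 bases, and Ccn5 had 0 in 709 bases. The median of the 11316 genes was 1.36 per kilobase. Ccn1 and Ccn2, which were higher with IL-17A, lay above that median, as did the lower Ccn3, while the lower Ccn4 and Ccn5 lay below it.

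Of 11 receptors and co-receptors of CCN proteins, 2 were higher (18.2%), 1 was lower (9.09%) and 8 lay within 2-fold. Over all measured genes 5.19% were higher and 3.69% were lower. The median log2 ratio of the 11 was 0.08, beside 0.0015 over all measured genes. Sdc4, the heparan sulfate proteoglycan syndecan-4, had 5067 counts with IL-17A and 1774 with vehicle and was 3.10-fold higher (95% counting interval 2.94 to 3.28). Notch1, a receptor that CCN3 is reported to bind, had 318 counts with IL-17A and 870 with vehicle and was 2.52-fold lower. Itgb8 was 3.34-fold higher on 43 counts with IL-17A and 14 with vehicle (interval 1.79 to 6.61). The chains of the vitronectin-type integrins used by CCN1 and CCN2, chosen for mention once the values were known, stood at log2 ratios of 0.96 for Itgb3, 0.83 for Itgav and 0.69 for Itgb5. The abundant Itgb1 and Lrp1 stood at -0.25 and 0.08. The rest of the list lay below 0, with Itga6 at -0.64, Lrp6 at -0.29 and Itga5 at -0.05.

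Proteases reported to cleave CCN proteins included 4 higher and 0 lower genes among 5 measured, and the median log2 ratio was 4.19. Over all measured genes, 5.19% were higher and 3.69% were lower. Mmp3, Mmp9 and Mmp13 had log2 ratios of 6.90, 5.39 and 4.19. Mmp2, named after its value was seen, had 45097 counts with IL-17A and 18249 with vehicle, a log2 ratio of 1.43, and the membrane protease Mmp14, within 2-fold, stood at 0.48. Mmp7 and Adam28 were not analysed here. Protein cleavage was not measured.

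YAP and TAZ, SRF and TGF-beta are known to drive Ccn1 and Ccn2. Of 20 other genes in a published YAP and TAZ signature, 2 were higher and 2 were lower, 10% each. The shares of all measured genes were 5.19% higher and 3.69% lower. The median log2 ratio was 0.15, and 13 of the 20 lay above 0. Foxf2 was 3.99-fold higher, on 176 counts with IL-17A and 48 with vehicle, while the secreted matrix protein Ccdc80 and the ligand Tgfb2 were 3.50-fold and 3.27-fold lower. The classic targets Ankrd1 and Amotl2, chosen for mention once the values were known, stood at 0.36 and 0.37. Among the 6 genes for YAP, TAZ and the TEAD factors, 1 was higher, Tead4 at 1.28 on 168 counts with IL-17A and 75 with vehicle, and Wwtr1, which encodes TAZ, and Tead2 stood at 0.36 and -0.34. Their median of 0.05 turned to -0.02 with total-count scaling.

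Of 12 targets of SRF, the actin-regulated factor that also acts on Ccn1 and Ccn2, 0 were higher and 3 were lower (25%). Over all measured genes, 5.19% were higher and 3.69% were lower. The median log2 ratio of the SRF targets was -0.18. The 3 lower SRF targets were the LIM protein gene Fhl2 at -1.44 and the smooth muscle genes Actg2 and Cnn1 at -1.10 and -1.05. Of 12 ligands and response genes of TGF-beta, 4 were higher (33.3%) and 1 was lower (8.33%), beside 5.19% and 3.69% of all measured genes. The median was 0.43, with 8 of the 12 above 0 and 4 below. The collagen genes Col1a1 and Col1a2, chosen for mention once the values were known, had the most counts of the 12. They stood at -0.64 and -0.46, and the summed level of the list was 31798 CPM with IL-17A and 42577 CPM with vehicle. Skil, a feedback repressor of the pathway, had 3769 counts with IL-17A and 1798 with vehicle and was 2.28-fold higher, and Tgfb2, listed here too, was the 1 lower.

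Notch signalling is listed here for the reported binding of CCN3 to Notch1. Of 5 measured Notch receptors and targets among 8 listed, 0 were higher and 4 were lower. The median log2 ratio was -1.33, and 3.69% of all measured genes were lower. Heyl, a target of Notch, had 21 counts with IL-17A and 126 with vehicle and was 5.52-fold lower (95% counting interval 3.46 to 9.23). Notch3 was 3.81-fold lower, on 167 counts with IL-17A and 692 with vehicle, and Notch1 is given above. The target Hes1 and the receptor Notch2 were named after their values were seen. Hes1 was 2.02-fold lower, with 514 counts with IL-17A and 1126 with vehicle, and its interval of 1.81 to 2.24 spanned the limit. Notch2 had the most counts of the listed genes, 2243 with IL-17A and 1880 with vehicle. It was not lower, at a log2 ratio of 0.37 (interval 0.29 to 0.46). Notch3 and Heyl are also known from mural cells, whose measured markers in the list of 4 were lower too. The part of those cells was not tested.

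Of 7 measured targets of beta-catenin, 1 was higher (14.3%) and 2 were lower (28.6%), and the median log2 ratio was -0.36, or 0.19 with a minimum of 200 counts. Lgr5 and the feedback inhibitor Nkd1 stood at -4.41 and -1.53, and the related Nkd2 at 1.76. The other measured targets, named after their values were seen, lay within 2-fold on both sides of 0. Axin2 and Lef1 stood at 0.94 and 0.74, and Znrf3 and Tcf7 at -0.36 and -0.62. Among 6 genes of the insulin-like growth factor binding proteins, which share the first module of the CCN proteins, 1 was higher (16.7%) and 2 were lower (33.3%), and the median was -0.50. Igfbp4 and Igfbp6 were 3.52-fold and 2.65-fold lower, and Igfbp7 was 2.11-fold higher with 38081 counts with IL-17A and 19644 with vehicle. The binding protein genes therefore lay on both sides of the limit. For both lists, the shares of all measured genes to set beside these were 5.19% higher and 3.69% lower.

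**Figure D4:**
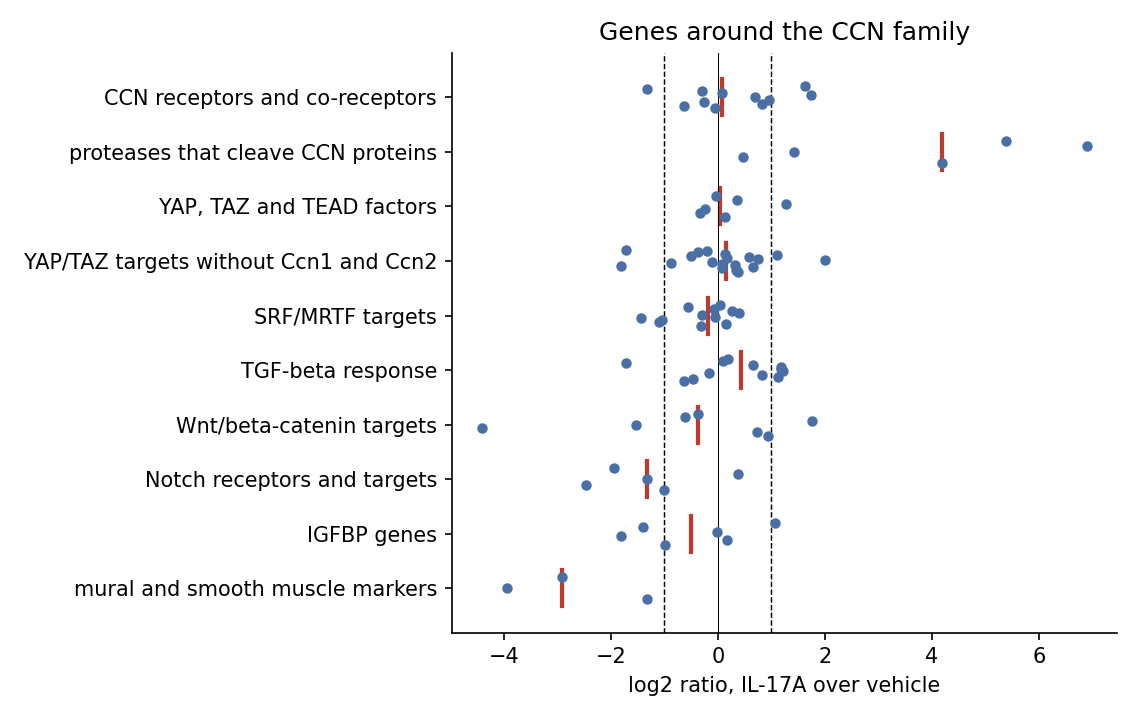
Each point is the log2 ratio of IL-17A over vehicle of 1 measured gene, grouped by list, with red bars at the list medians and dashed lines at 2-fold. Protease genes lie to the right with a median of 4.19. Notch genes other than Notch2 and the mural markers lie to the left, with list medians of -1.33 and -2.91. The lists of YAP/TAZ targets, SRF targets, and TGF-beta ligands and response genes have genes on both sides of 0. Their medians are 0.15, -0.18 and 0.43.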

How the data were processed

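The authors deposited a table of whole-number counts with a row for each gene symbol and 1 column per library, without normalization. STAR, featureCounts and mm10 are named in the submitters' processing notes, while versions, annotation, strand setting and the treatment of multiply aligned reads were not given in the sources used here. Strand and multiple alignments could shift counts of overlapping or duplicated genes. RNA was extracted with a PureLink kit and made into stranded mRNA libraries, per the labels' protocols.

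TMM scaling of library size used edgeR 4.0.16 (R 4.3.3). Ratios of scaled counts, IL-17A over vehicle, carry exact 95% Clopper-Pearson intervals from the share of counts that fell in the IL-17A library, levels carry exact Poisson intervals, and ratios between members the exact conditional interval of an odds ratio (scipy 1.17.1). No test was possible with 1 library per group. The calculation of the ratios was checked on counts simulated with known differences and counting error alone. That check held no spread over cultures, so it cannot speak to how well the ratios would repeat. A count of 0 was set to 3 counts, which is 0.127 CPM with IL-17A and 0.123 CPM with vehicle. Of the rows, 98.1% had a symbol in GENCODE M21, which gave lengths, and 21 had date-like symbols and were not named. Proteins were aligned globally with free end gaps (BLOSUM62, biopython 1.88).

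The members and the 17 gene lists were chosen with earlier results of these data known. The text names the members, up to 3 genes per list by absolute ratio, and the 2 genes nearest to each member in ratio and mean level. Of the genes that this rule names, 1 is not reported here.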

Additional observations from a re-analysis of the deposited data

How the results depend on the processing

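All 5 CCN log2 ratios kept their sign under every scaling, minimum and prior count tried, and 2 members were lower by the size rule under each setting. Members higher numbered 2 at 1.5-fold and 0 otherwise. With total counts, Ccn1, Ccn2 and Ccn4 stood at 0.78, 0.60 and -0.32, and with the upper quartile at 0.81, 0.62 and -0.29. Size factors as DESeq2 computes them and a prior count of 2 moved no member beyond its counting interval. The median of all measured genes shifted by -0.07 with total counts.

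The number of measured genes past the limit, 702 higher and 500 lower, was 1364 and 1117 at 1.5-fold, 340 and 219 at 3-fold, 1090 and 955 with a minimum of 10 counts, and 1347 and 1148 with none, and a minimum of 200 left 275 lower. The lists around the family, without genes that also served as cell type markers, held 87 genes, not all of them measured. Among those measured, 15 were higher and 13 lower at 2-fold, 24 were higher at 1.5-fold, and 7 higher and 6 lower at 3-fold. The beta-catenin median was 0.19 with a minimum of 200 counts, and the YAP, TAZ and TEAD median was -0.023 with total counts; the first rests on fewer genes, and the second lies near 0.

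Ranks of level depended on length. Without length, and with coding length, Ccn4 ranked 1 and Ccn1 ranked 3 with IL-17A, and Ccn3 ranked 3 and Ccn1 ranked 4 with vehicle. With transcript length, Ccn2 ranked 1 in both libraries, Ccn1 ranked 2 with IL-17A and Ccn4 ranked 2 with vehicle. The share of Ccn1 and Ccn2 in the summed level was 60.2% with IL-17A and 34.4% with vehicle without length, 60.3% with IL-17A and 33.9% with vehicle with coding length, and 76.2% with IL-17A and 46.6% with vehicle with transcript length. That of Ccn3 and Ccn5 was 2.72% with IL-17A and 23.5% with vehicle without length, 3.19% with IL-17A and 25.6% with vehicle with coding length, and 3.32% with IL-17A and 28.4% with vehicle with transcript length. Transcript length, coding length from GENCODE, and all settings for the shares were chosen after seeing the data, and coding length from RefSeq proteins was not run. No paired analysis was possible because each group held 1 library, and for the same reason no library could be left out. Depth was not the limit for any CCN gene, since the smallest count was 642, whereas variation between cultures was not measured.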

Other observations

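Genes next to the CCN loci differed in both directions. Taking the 2 nearest measured coding genes on each side, a rule chosen after the members' values were seen, gave 20 neighbours. Of these, 5 were past 2-fold in either direction, where 5.19% of all measured genes were higher and 3.69% were lower. Ccn3 lay 84.9 kb from Enpp2, which encodes the enzyme autotaxin. Enpp2 had 675 counts with IL-17A and 55 with vehicle, a log2 ratio of 3.74 (95% counting interval 3.34 to 4.16), while Ccn3 stood at -3.49. On the other side of Ccn3, Colec10 stood at -1.61 on 13 counts with IL-17A and 43 with vehicle, and the decoy receptor gene Tnfrsf11b at 0.34. Ccn4 lay 6.12 kb from Ndrg1, a gene known to respond to hypoxia, which stood at 1.17 with 6938 counts with IL-17A and 3362 with vehicle, beside -0.25 for Ccn4. Ccn1 lay 94.97 kb from Col24a1, a fibrillar collagen gene, at 1.84 with 1373 counts with IL-17A and 416 with vehicle. The 4 neighbours of Ccn2 lay between -0.65 and 0.20. Of the 4 beside Ccn5, Ada was at -1.14 and the other 3 between -0.31 and 0.01.

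Likeness of pattern could be taken over 2 libraries only, as the distance in log2 ratio and mean log2 CPM among 11985 measured coding genes. Nearest to Ccn1 were the cytokine receptor gene Il4ra and the semaphorin co-receptor gene Nrp2, at distances of 0.13 and 0.16. Nearest to Ccn2 were the growth factor receptor gene Fgfr1 and the tenascin gene Tnn, at 0.11 and 0.15. Ccn4 lay closest to the cadherin gene Cdh11 at 0.14 and to mt-Nd1 at 0.17, a mitochondrial gene with nuclear copies whose counts are uncertain. Ccn5 lay closest to the LIM protein gene Fhl1 and the transcription factor gene Osr1, at 0.41 and 0.51. Ccn3 had no close match, as Fbn2 and Lgr5, the nearest, were 0.80 and 0.92 away.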
